A study of Mus musculus with 20 samples.

Results

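Rhoa and Iqgap1 encode proteins of the actin cytoskeleton, and the measurements concern the editing of their transcripts. RhoA is a small GTPase that drives actin stress fibres and contraction. IQGAP1 is a scaffold protein that binds actin filaments, calmodulin and the GTPases Cdc42 and Rac1. Editing here is the deamination of adenosine to inosine in double-stranded RNA, which sequencing of cDNA reads as guanosine. The enzymes are ADAR2 and ADAR1, and ADAR1 exists as a p110 form made at all times and a longer p150 form that interferon induces. In untranslated regions it often falls in many adjacent adenosines, because repeats in inverted order fold into long double strands. STAT2 is a transcription factor that carries the type I interferon signal to the nucleus.

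Of 48425 listed sites, 56 were kept, 3 in Rhoa and 53 in Iqgap1. Sites were selected on gene name and coverage, with at least 50 reads in both libraries of at least 1 group. The 2 genes themselves were chosen by their editing levels, with the high values in interferon-treated cells already known, so those levels are given as a description. All 56 sites had at least 626 reads in every library. Among the Iqgap1 sites the shallowest was 87856949, with at least 1258 reads. Another 2 listed Iqgap1 sites, both intronic (chr7 87867349 and 87924849), had 0 reads in every library and were left out.

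The study amplified known editing sites from mouse embryonic fibroblasts, connective tissue cells grown from embryos, in a design of 557 loci. The lines used here carry the labels ADAR1_NULL, P150_KO, STAT2_NULL, ADAR2_NULL and ADAR1_WT, and are called ADAR1-null, p150-knockout, STAT2-null, ADAR2-null and wild type. Each was sampled with interferon and untreated, with 2 libraries in each of 10 groups, 20 in all. The design text counts 6 lines; the remaining one was not analysed here. A genotype is represented by 1 line here and cannot be told apart from any other difference between lines. No label names the ADAR1_WT line as a matched control of the other 4, and the sources used here do not give the interferon's type, dose or duration. No source states that libraries of a group are separate cultures, and the p-values therefore reflect a spread between libraries that may be technical.

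Total coverage summed over sites was 4389326 to 5559674 reads per library. At the 56 sites it was 626 to 10586 reads per site and library. The Wilson 95% interval of a single library's level was at most 6.60 points wide, and at most 1.56 points wide for levels under 1%. Reads carry no molecular identifiers, so intervals and limits cover counting error only. A level is a share of the reads over a site, pooled over cells, so fewer cells that edit and less editing in each cell cannot be told apart. The assay gives no transcript amounts, and neither the loss of the targeted genes nor the cell type could be checked (0 of 8 fibroblast marker genes had a covered site).

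All 56 sites lie in 3′ UTRs by the files' annotation. Positions are those of the files, on mouse build mm9, with no statement of whether counting starts at 0 or 1. The Rhoa sites lie on the plus strand of chr9 at 108239461, 108239526 and 108239600, so the others lie 65 and 139 bases from the first. The Iqgap1 sites lie on the minus strand of chr7 in 2 blocks. The first block holds 10 sites over 53 bases (chr7:87856908-87856960). The second holds 43 sites over 132 bases (chr7:87857159-87857290). Sites in Iqgap1 are also named by their distance from the block's lowest position, called base 0, so that a higher base lies further upstream in the transcript. The second block contains 9 listed sites at consecutive positions, bases 7 to 15.

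Rhoa carried 1 strongly edited site. In interferon-treated ADAR2-null cells, site 108239461 had levels of 73.7% (502 of 681 reads) and 73.4% (570 of 777 reads). In untreated ADAR2-null cells it had 0.607% and 0.512%. In interferon-treated wild-type cells the levels were 65.3% (698 of 1069 reads) and 68.6% (624 of 909 reads), against 0.816% and 1.43% untreated. Treated and untreated libraries of these 2 lines did not overlap at this site. The difference was 73.0 points (SE 0.184) in ADAR2-null cells and 65.8 points (SE 1.70) in wild-type cells. The treated mean was 131.5 times the untreated mean in ADAR2-null cells and 59.7 times in wild-type cells.

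The other 3 lines held this Rhoa site low under both treatments. STAT2-null cells had 2.53% and 2.26% with interferon, against 0.994% and 2.23% untreated, a difference of 0.781 points (SE 0.630). This difference did not pass the quasi-likelihood test of edgeR, adjusted by Benjamini-Hochberg over all sites tested (adjusted p = 0.999). ADAR1-null cells had 0.272% and 0.126% with interferon, against 0.317% and 0.223% untreated. The p150-knockout cells had 0.353% and 0.119% with interferon. Untreated, they had 0.144% in one library and 0 of 872 reads in the other, which allows a level of up to 0.344%. In both lines treated and untreated libraries overlapped, and the site was too low to be tested there.

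**Figure D1:**
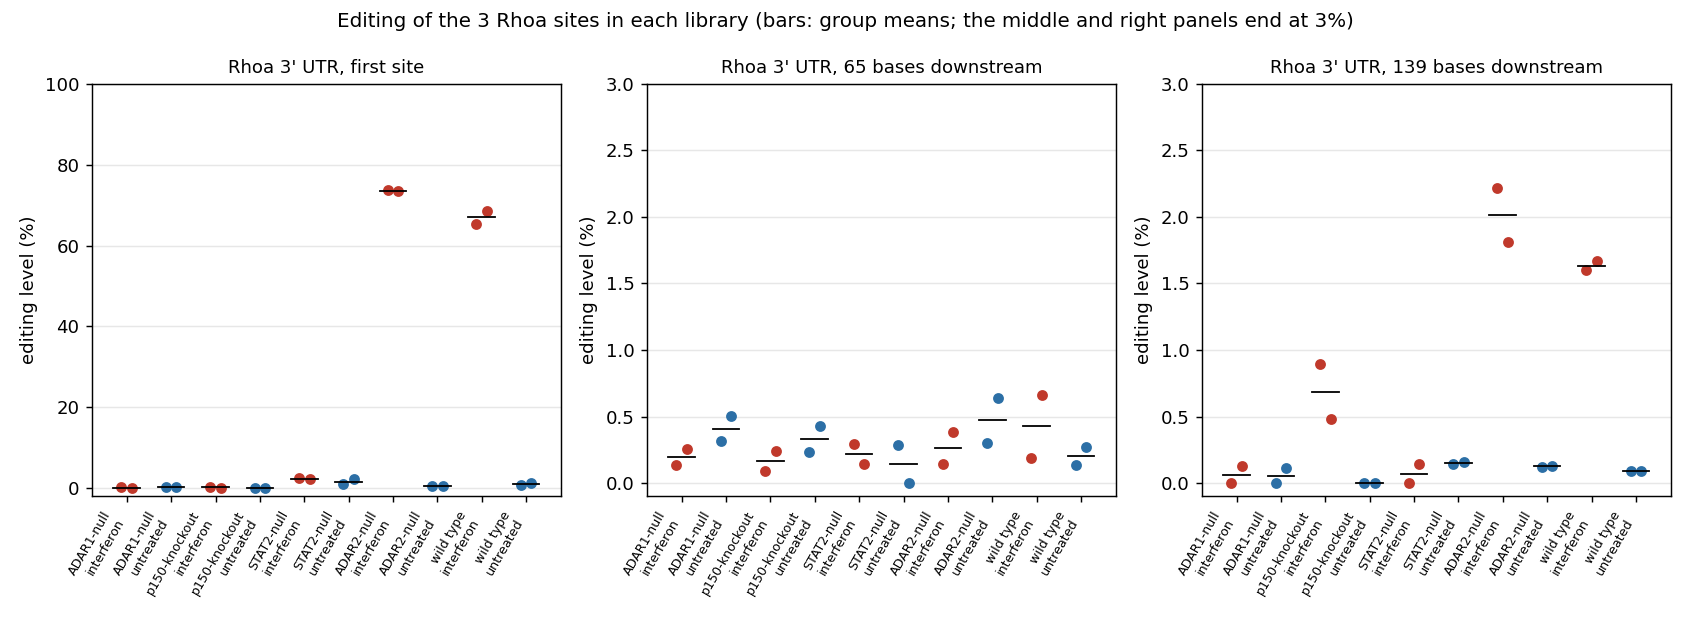
Editing level (% of reads, vertical axes) of the 3 Rhoa sites in each library, by line and treatment along the horizontal axis; points are libraries and bars are group means. The left panel runs to 100% and shows treated ADAR2-null and wild-type libraries at 65.3% to 73.7%; the middle and right panels end at 3%.

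Set against treated wild-type cells, the Rhoa site differed by -66.8 points (SE 1.68) in ADAR1-null cells, with an adjusted p of 3.61e-07 by edgeR. It differed by -66.7 points (SE 1.68, adjusted p = 4.34e-07) in p150-knockout cells and by -64.6 points (SE 1.68, adjusted p = 8.79e-05) in STAT2-null cells. These 3 comparisons share the treated wild-type libraries, in which the gene was chosen as high. Treated ADAR2-null cells averaged 73.5% ± 0.252, against 67.0% ± 2.37 in treated wild-type cells (SD, n = 2 each). Both ADAR2-null libraries lay above both wild-type libraries, but the difference of 6.57 points (SE 1.69) did not pass the test (edgeR adjusted p = 0.94). The mean lay highest in ADAR2-null, then wild-type, then STAT2-null treated cells, and the first 2 of these were not separated by the test.

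The interferon response at this site, treated minus untreated, fell short of that in wild type, with a difference of -65.9 points in ADAR1-null cells (SE 1.71, edgeR adjusted p = 0.00561). In STAT2-null cells the difference was -65.1 points (SE 1.82, adjusted p = 0.00647). The p150-knockout response differed by -65.7 points (SE 1.71) and missed the threshold by edgeR (adjusted p = 0.124), while limma on log2 odds called it (adjusted p = 0.00464). The test works on the odds of editing, and the untreated p150-knockout libraries hold 1 edited read between them. The ADAR2-null response was 7.13 points larger than that of wild type (SE 1.71) and was not called (edgeR adjusted p = 0.759).

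The 2 downstream Rhoa sites stayed low in all libraries. Site 108239526 did not exceed 0.663% in any library. Site 108239600 had 2.22% and 1.81% in treated ADAR2-null cells, against 0.122% and 0.129% untreated. In treated wild-type cells it had 1.60% and 1.67%, against 0.0917% and 0.0907% untreated. Treated p150-knockout cells had 0.894% and 0.479% at this site, and untreated ones 0 of 1561 reads over both libraries, which allows up to 0.192%. That pair of groups did not overlap, but the site was under the 1% mean needed for a test. STAT2-null and ADAR1-null libraries held at most 0.160% at it under either treatment. The 3 sites of Rhoa thus spanned 0.188% to 68.6% within the treated wild-type libraries.

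Iqgap1 was edited at many sites and at a lower level. The mean over its 53 sites was 1.39% ± 0.0868 in treated ADAR2-null cells, against 0.356% ± 0.00687 untreated. It was 2.83% ± 0.216 in treated wild-type cells, against 0.363% ± 0.0161 untreated (SD, n = 2 each). In ADAR1-null cells the mean was 0.371% ± 0.0338 with interferon and 0.285% ± 0.0776 untreated. In p150-knockout cells it was 0.363% ± 0.00266 with interferon and 0.332% ± 0.0341 untreated. STAT2-null cells had 0.311% ± 0.0195 with interferon and 0.302% ± 0.0233 untreated. Treated ADAR2-null and wild-type libraries thus stood above all others, and the other 8 groups lay within 0.285% to 0.371%.

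In treated wild-type cells 22 of the 53 sites reached a mean of 1% and 9 reached 5%. In treated ADAR2-null cells 17 reached 1% and 3 reached 5%. In each of the other 8 groups 1 site reached 1%, and it was the same one, base 7 of the second block. The 4 highest sites held 47.8% of the summed wild-type levels and the 9 highest 69.4%. By contrast, 25 of the 53 sites stayed under 1% in every library, with medians per group of 0.192% to 0.346%.

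**Figure D2:**
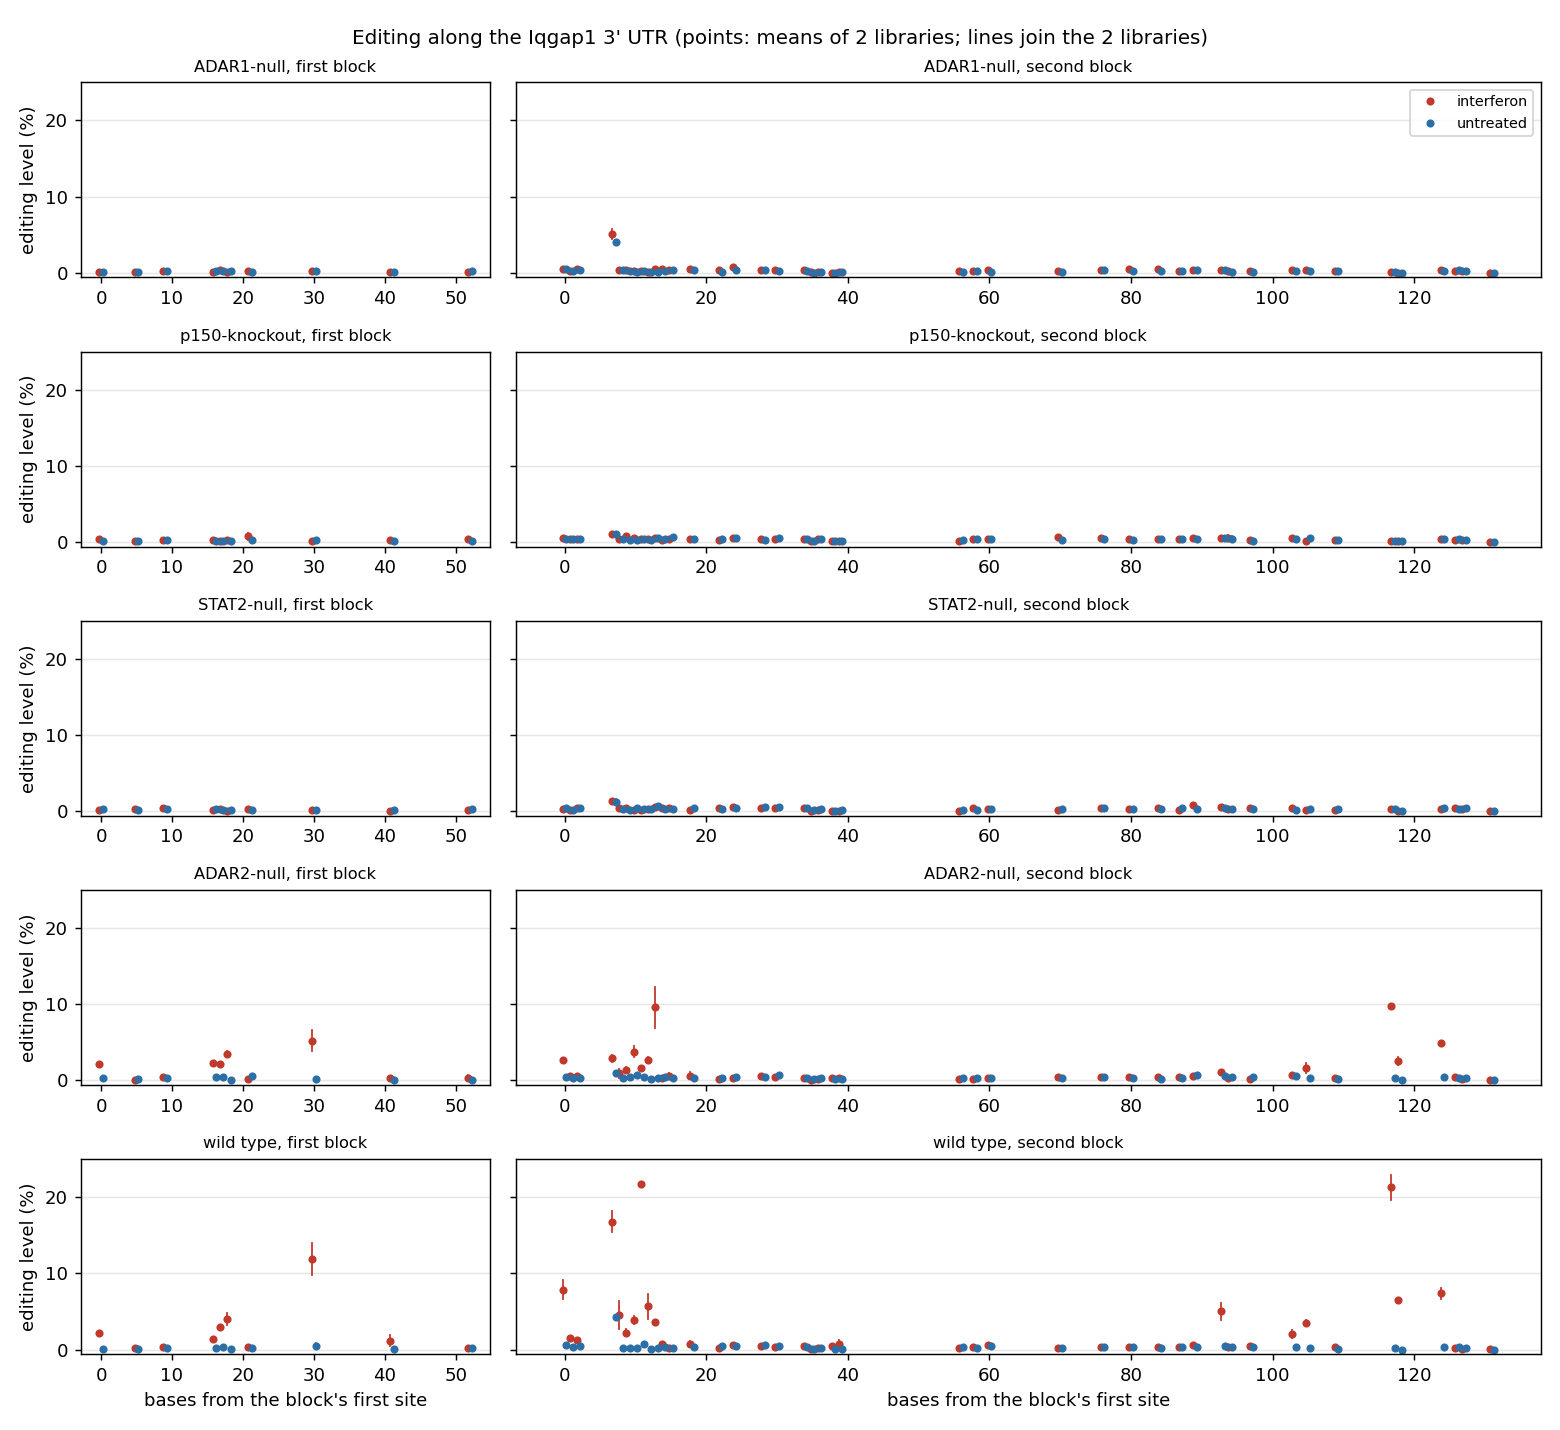
Editing level (%) of the 53 Iqgap1 sites against distance in bases from the lowest position of each block, 1 row of panels per line; red is interferon, blue is untreated, points are means of 2 libraries and lines join the libraries. Peaks in the 2 lowest rows (ADAR2-null and wild type) are red, and base 7 of the second block is raised in the ADAR1-null row and in untreated wild-type cells.

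The 4 highest Iqgap1 sites in treated wild-type cells were base 11 of the second block (87857170), base 117 (87857276), base 7 (87857166) and base 30 of the first block (87856938). Base 11 had 1.68% and 1.50% in treated ADAR2-null cells, against 0.357% and 0.467% untreated. It had 22.0% and 21.6% in treated wild-type cells, against 0.819% and 0.645% untreated. The other lines held at most 0.558% at it. Base 117 had 9.84% and 9.77% in treated ADAR2-null cells, against 0.201% and 0.335% untreated. In treated wild-type cells it had 23.0% and 19.6%, against 0.121% and 0.437% untreated. Treated and untreated libraries did not overlap at either site in these 2 lines. Base 30 of the first block had 6.62% and 3.80% in treated ADAR2-null cells, against 0.065% and 0.227% untreated. It had 14.0% and 9.77% in treated wild-type cells, against 0.826% and 0.146% untreated. Libraries of a treated group differed by several points at this site, which is the widest gap among wild-type libraries at any of the 56 sites (4.22 points).

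**Figure D3:**
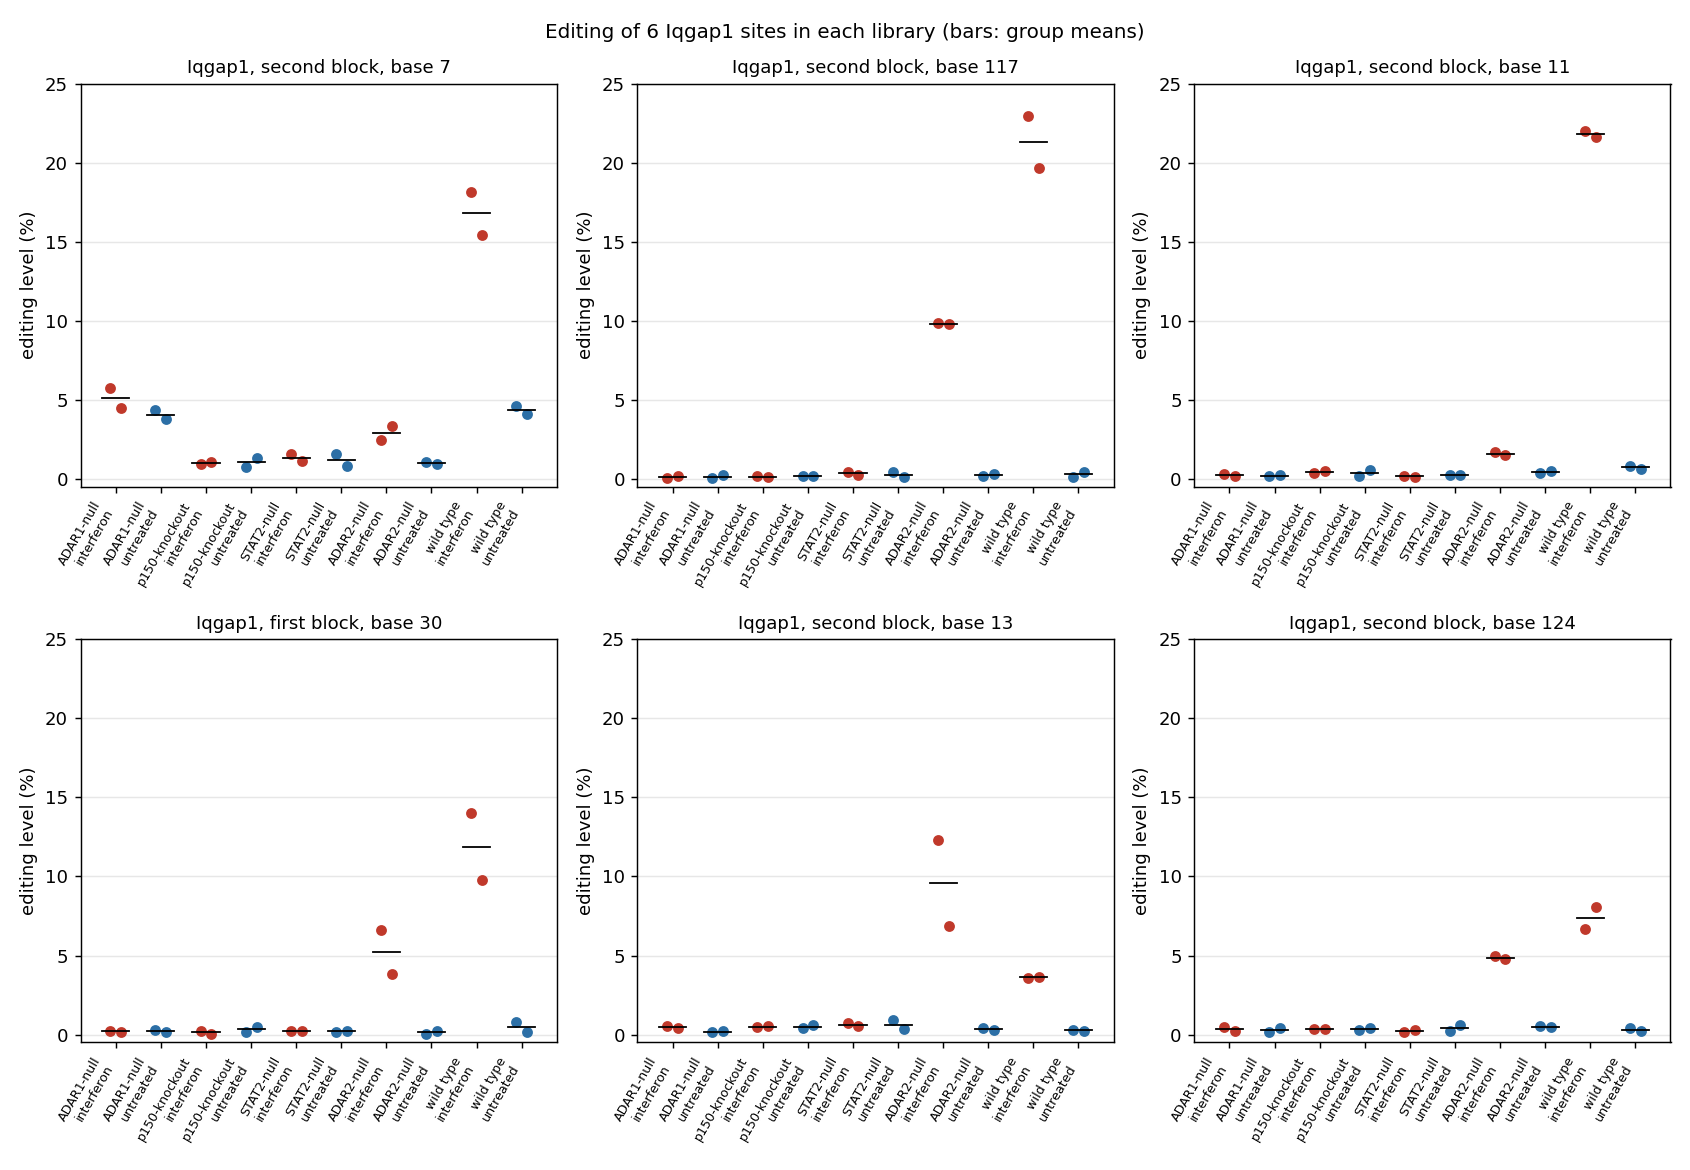
Editing level (%) of 6 Iqgap1 sites in each library, by line and treatment; points are libraries and bars are group means, and every panel has the same scale. Base 11 reached 22.0% in treated wild-type cells, while base 13 was highest in treated ADAR2-null cells, at 12.3% and 6.84%.

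Levels changed sharply from base to base within the stretch of 9 consecutive listed positions, bases 7 to 15. In treated ADAR2-null cells the means along it were 2.88%, 0.942%, 1.37%, 3.77%, 1.59%, 2.66%, 9.58%, 0.258% and 0.624%. In treated wild-type cells they were 16.8%, 4.51%, 2.24%, 3.90%, 21.8%, 5.68%, 3.61%, 0.758% and 0.253%. The wild-type peak was at base 11 and the ADAR2-null peak 2 positions further, at base 13. The last 2 positions were under 1% in both.

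The comparison of treated ADAR2-null with treated wild-type cells asked where along Iqgap1 these 2 responding lines differed. All 22 sites at 1% or more in either group reached 1% in wild-type cells, and 17 of them did so in ADAR2-null cells, so the choice of sites favours those high in wild type. The ADAR2-null mean was lower at 20 of the 22, with a median ratio to wild type of 0.461. Over all 1348 sites tested in this comparison, the ADAR2-null mean was lower at 935, with a median difference of -1.88 points. These counts are therefore a description and say nothing particular to Iqgap1. The pair of ADAR2-null libraries was below the wild-type pair at 15 sites and above it at 2, base 16 of the first block and base 13 of the second. The libraries overlapped at 5. The share of all sites with such separated pairs is not given, so this count is a description only. Levels of the 2 groups correlated across the 53 sites with a Pearson r of 0.642 and a Spearman coefficient of 0.820, a description over adjacent sites of shared reads.

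The test called 2 of the 22 sites of both genes that could be tested in this comparison, both lower. Of all 1348 sites tested, 1.26% were called lower. The 2 sites were bases 7 and 11 of the second block. Base 11 differed in ADAR2-null cells by -20.2 points (SE 0.216, edgeR adjusted p = 0.000213), a wild-type level 13.7 times as high. Base 7 differed by -13.9 points (SE 1.44, adjusted p = 0.00971). The call at base 7 was lost without either treated ADAR2-null library (adjusted p = 0.177 without replicate 1 and 0.0956 without replicate 2) and in limma (0.061). Both calls were lost when the fit held only the 2 groups compared (adjusted p = 0.19 each). Base 13 was higher in ADAR2-null cells by 5.97 points (SE 2.74) and was not called (adjusted p = 0.286), its libraries standing at 12.3% and 6.84% against 3.60% and 3.63% in wild type. Base 117, at -11.5 points, was not called either (SE 1.67, adjusted p = 0.5). Tested as a difference between interferon responses, no site of either gene was called between ADAR2-null and wild-type cells (0 of 19 by edgeR, 0 by limma, 6 at an unadjusted p under 0.05), where 0.175% of all 1146 sites were called.

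**Figure D4:**
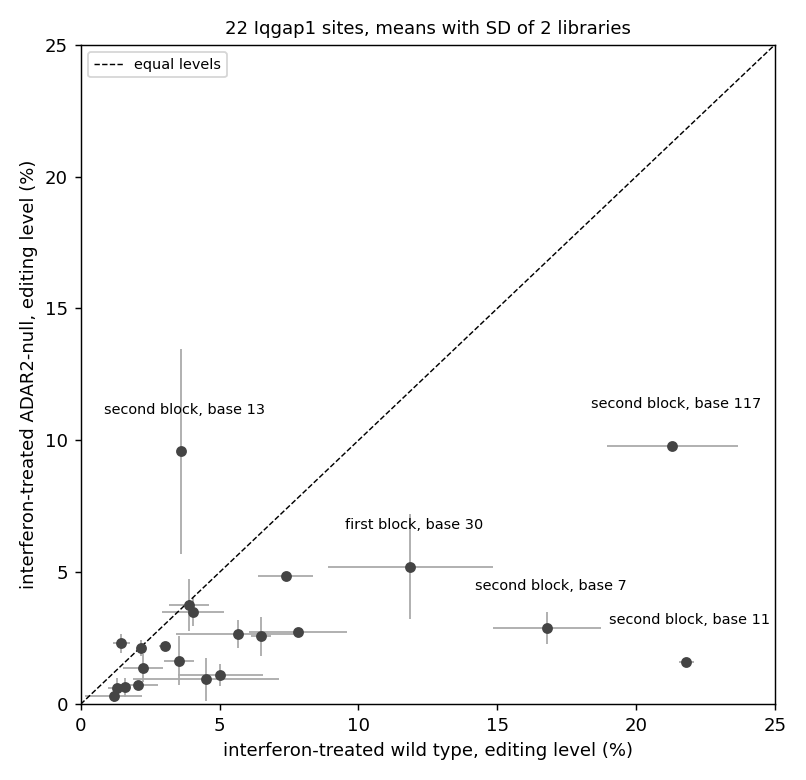
Editing levels (%) of the 22 Iqgap1 sites that reached 1% in treated wild-type cells, in treated ADAR2-null cells (vertical) and treated wild-type cells (horizontal), means with SD of 2 libraries; the dashed line marks equal levels. At 20 of the 22 sites the mean lies below the line, farthest at base 11 of the second block (1.59% against 21.8%), and base 13 lies above it.

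Base 7 of the second block (87857166) was the one Iqgap1 site edited above 1% in every group. It had 5.72% and 4.47% in treated ADAR1-null cells, against 4.33% and 3.78% untreated. It had 0.927% and 1.08% in treated p150-knockout cells, against 0.769% and 1.30% untreated. In STAT2-null cells it had 1.55% and 1.10% with interferon, against 1.56% and 0.841% untreated. ADAR2-null cells had 2.45% and 3.32% with interferon, against 1.06% and 0.960% untreated. Wild-type cells had 18.2% and 15.4% with interferon, against 4.61% and 4.10% untreated. Untreated ADAR1-null libraries thus overlapped untreated wild-type libraries at this site, and the other 3 untreated lines lay below both.

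Among untreated cells, base 7 differed from wild type by -0.293 points in ADAR1-null cells (SE 0.375, edgeR adjusted p = 0.875), where 46.6% of all 386 sites tested were called lower. It differed by -3.32 points in p150-knockout cells (SE 0.368, adjusted p = 0.00943), where 28.6% of all sites tested were called lower. It differed by -3.34 points in ADAR2-null cells (SE 0.260, adjusted p = 0.0201), where 9.86% were called lower. In STAT2-null cells the difference was -3.15 points (SE 0.440) and was not called (adjusted p = 0.0732), where 2.02% of all sites were called lower. The p150-knockout call was lost without untreated p150-knockout replicate 1 (adjusted p = 0.11) and with no minimum level (0.115). The ADAR2-null call was lost without any 1 of the 4 untreated libraries (adjusted p = 0.0710 to 0.127) in limma (0.0689), with no minimum level (0.168) and with only the groups compared (0.0867), and was kept in 3 of 10 alternatives. These comparisons share the untreated wild-type libraries.

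With interferon, base 7 differed from wild type by -11.7 points in ADAR1-null cells (SE 1.51, edgeR adjusted p = 0.0069). Without treated ADAR1-null replicate 2 this adjusted p was 0.0519, and with no minimum level 0.056. It differed by -15.8 points in p150-knockout cells (SE 1.37, adjusted p = 1.98e-06) and by -15.5 points in STAT2-null cells (SE 1.39, adjusted p = 2.72e-05). The interferon difference within ADAR1-null cells was 1.04 points (SE 0.683), with treated above untreated libraries but no call (adjusted p = 0.934). Tested as a difference between interferon responses, base 7 was called in none of the 4 lines against wild type by edgeR. The differences were -11.4 points in ADAR1-null (SE 1.55, adjusted p = 0.153), -12.5 in p150-knockout (SE 1.42, adjusted p = 0.0857), -12.3 in STAT2-null (SE 1.46, adjusted p = 0.123) and -10.6 points in ADAR2-null cells (SE 1.46, adjusted p = 0.839).

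The reads over base 7 also differed between lines. Reads at base 7 divided by reads at base 8, the next listed position, were 0.951 to 0.960 in treated and 0.962 to 0.966 in untreated ADAR1-null libraries. They were 0.978 to 0.980 in treated and 0.963 to 0.966 in untreated wild-type libraries. In the other 3 lines the ratio was 0.990 to 0.996. The ratio was thus lower in ADAR1-null and wild-type libraries. Among untreated groups these lines also had the higher base 7 levels, 3.78% to 4.61% per library, against 0.769% to 1.56% in the other 3. Between treatments, the wild-type ratio was nearer to 1 with interferon, where the level was higher. In ADAR1-null cells the ratio was further from 1 with interferon, where both levels lay above the untreated ones without a call. In ADAR2-null cells the ranges of the ratio overlapped while the level was higher with interferon. In p150-knockout and STAT2-null cells the ranges of both the ratio and the level overlapped. The part of these reads in the level was not tested.

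**Figure D5:**
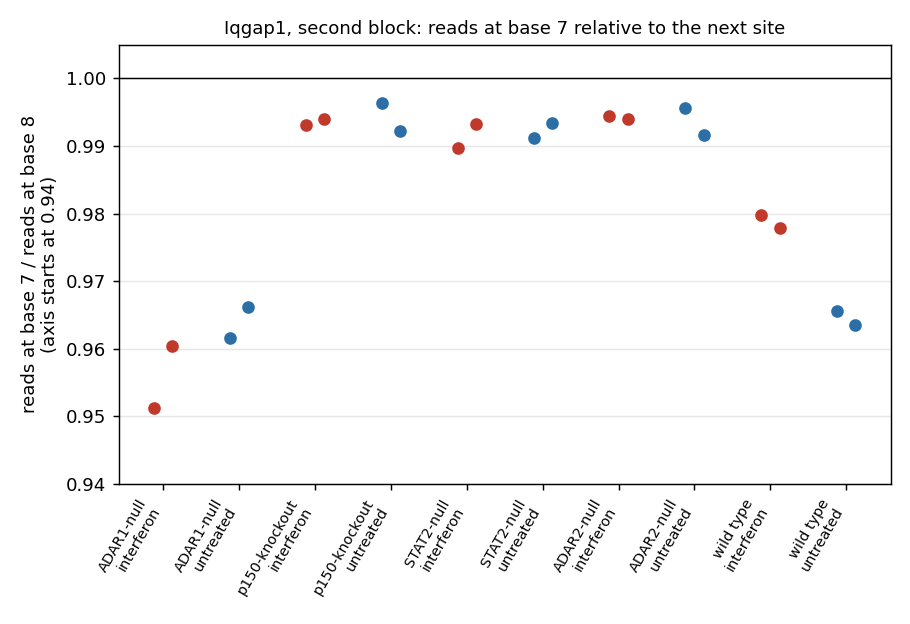
Reads at base 7 of the second Iqgap1 block divided by reads at base 8 in each library, by line and treatment; the vertical axis is a ratio that starts at 0.94, and the line marks equal reads. ADAR1-null and wild-type libraries lie between 0.951 and 0.980, all others between 0.990 and 0.996.

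Depth along the amplicons was stepped. Over the 30 sites in the middle of the second Iqgap1 block (bases 7 to 94), coverage was 1.98 to 2.01 times that of the 13 sites at its edges in every library. In Rhoa, coverage at 108239526 was 1.99 times that at 108239461 (median over libraries). The sources used here do not say how overlapping mates of a read pair were counted. If both were counted, the intervals at those sites are too narrow.

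Across comparisons, a site entered the test with at least 50 reads in each library compared and a mean of at least 1% over those libraries. Most sites of these genes met the mean through the treated wild-type or ADAR2-null libraries, so they had to differ and their counts support nothing further. Interferon against untreated gave 15 of 17 tested sites higher in ADAR2-null cells, where 49.5% of all 1145 sites tested were called higher. In wild-type cells it gave 19 of 19, where 40.8% of all 1223 sites were called higher. Without the minimum level, all 56 sites were tested and 10 were called in ADAR2-null and 20 in wild-type cells. The median difference over all 56 sites was 0.196 points in ADAR2-null and 0.318 points in wild-type cells. Most of the 56 were under the 1% mean in these comparisons. Medians over all sites of the series that met that mean were 4.78 and 5.27 points. The 2 kinds of median cover unlike sets of sites and cannot be compared.

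In the other 3 lines interferon gave 0 calls by edgeR in these genes. In ADAR1-null cells 1 site of Iqgap1 was tested, where 0.0% of all 114 sites were called. In p150-knockout cells 1 was tested, where 0.823% of all 243 sites were called. In STAT2-null cells 1 site of each gene was tested, where 0.0% of all 658 sites were called. None of these tested sites had an unadjusted p under 0.05, and limma called none. With no minimum level, 3 of 56 sites in ADAR1-null, 1 in p150-knockout and 1 in STAT2-null cells had an unadjusted p under 0.05, and none was called.

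Against treated wild-type cells, 19 of 19 tested sites were called lower in ADAR1-null cells, where 70.8% of all sites tested were called lower. In p150-knockout cells it was 19 of 21, where 62.9% were called lower. In STAT2-null cells it was 19 of 19, where 40.2% were called lower. The interferon response was called smaller than in wild type at 12 of 16 sites in ADAR1-null cells, where 10.1% of all sites were called lower. It was called smaller at 12 of 15 sites in p150-knockout cells (13.8% of all sites) and at 14 of 15 in STAT2-null cells (13.2% of all sites). All of these comparisons share the treated wild-type libraries, in which the genes were chosen as high. Most of the tested sites met the minimum mean level only through those libraries, so the choice of sites favoured these calls. Set against the shares over all sites, the counts therefore show nothing particular to Rhoa or Iqgap1.

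Genes with the most similar levels over the 10 groups were sought by the root mean square difference of gene means, over sites with at least 1% on average. Rhoa then rests on its first site alone, while the 78 other genes needed at least 2 sites and were averaged over them. A single site chosen as high was thus set against gene means, so its distance does not show that Rhoa stands apart. The nearest was Mmgt1, at 14.7 points (Pearson r 0.990 over 10 groups), followed by Cds2 at 15.5, Fubp3 at 16.0 and Nup155 at 16.1 points. Mmgt1 averaged 35.3% in treated ADAR2-null and 40.4% in treated wild-type cells, both below the Rhoa site. Iqgap1, over 10 such sites, had genes at smaller distances in points. Its levels are lower than those of the Rhoa site, so the distances of the 2 genes cannot be compared. Trove2 differed by 0.932 points (r 0.962), Pank3 by 1.20 (r 0.995), Lsm11 by 1.22 (r 0.941) and Tbc1d24 by 1.29 points (r 0.946). Iqgap1 averaged 4.42% in treated ADAR2-null and 10.5% in treated wild-type cells over those sites, where Trove2 averaged 7.19% and 10.1%. In the same 2 groups Pank3 averaged 4.41% and 14.1%, Lsm11 0.775% and 9.79%, and Tbc1d24 6.62% and 10.3%.

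Other genes of the actin cytoskeleton pathway were sparsely measured. Of 131 genes looked for (GTPases, their regulators and effectors, actin-binding proteins and partners of IQGAP1), 61 had listed sites and 2 had a site with at least 50 reads in every library. Interferon was followed by higher levels at 2 of 13 tested sites in wild-type cells, where 40.8% of all sites tested were called higher. In ADAR2-null cells 0 of 9 were called, where 49.5% of all sites were called higher. It was 0 of 6 in ADAR1-null (0.0% of all sites), 0 of 2 in p150-knockout (0.823%) and 0 of 10 in STAT2-null cells (0.0%). Both sites called in wild-type cells lie in Cdh1, which encodes the adhesion protein E-cadherin. The Cdh1 site at chr8 109192623, in the 3′ UTR, had 52.1% ± 29.7 in treated and 0.658% ± 0.930 in untreated wild-type cells (SD, n = 2 each; edgeR adjusted p = 0.000998). Against treated wild-type cells, 7 of 13 tested sites were called lower in ADAR1-null cells (70.8% of all sites) and 0 of 5 in p150-knockout cells (62.9%). It was 3 of 11 in STAT2-null (40.2%) and 1 of 11 in ADAR2-null cells (1.26%).

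Against untreated wild-type cells the pathway genes were called lower at 1 of 5 tested sites in ADAR1-null cells (46.6% of all sites) and 3 of 10 in p150-knockout cells (28.6%). It was 0 of 11 in STAT2-null (2.02%) and 3 of 9 in ADAR2-null cells (9.86%), with no site called higher. With so few sites, none of these shares is read as differing from that over all sites. Flna encodes the actin cross-linker filamin A. Its intronic site at chrX 71471989 had 43.2% ± 1.40 in untreated wild-type cells (SD, n = 2 in each group). Untreated ADAR2-null cells had 0.485% ± 0.687 (edgeR adjusted p = 0.00719). Untreated p150-knockout cells had 1.96% ± 0.267 (edgeR adjusted p = 0.0104). Untreated STAT2-null cells had 8.33% ± 0.623 and were not called (edgeR adjusted p = 0.294). Low untreated levels at this Flna site were thus not particular to ADAR2-null cells. With interferon the site averaged 41.6% ± 30.1 for the p150-knockout line, against 29.5% ± 21.8 for wild type. Treated ADAR1-null, ADAR2-null and STAT2-null cells averaged 1.26%, 0.0% and 4.40%. A nonsynonymous site of Cyfip2 (chr11 46086145), a subunit of the WAVE actin regulator, had 14.4% ± 0.129 in untreated wild-type cells. The untreated p150-knockout line was at 0 there (edgeR adjusted p = 0.00722). With interferon the Cyfip2 site was also at 0 in ADAR1-null and ADAR2-null cells. It was at 0.459% ± 0.649 in treated STAT2-null cells, against 14.4% ± 10.3 in treated wild-type cells. Low levels at this Cyfip2 site were thus not particular to the p150-knockout line. Levels of 0 at the Flna and Cyfip2 sites rest on at least 50 reads in each library, and their upper limits are not given here. These sites were high in untreated wild-type cells, where no site of Rhoa or Iqgap1 exceeded 4.61%.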

How the data were processed

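Editing was read in amplicons from 20 libraries of 5 mouse fibroblast lines. Per the labels' protocols, PCR products were pooled per sample and barcoded in 15 cycles; per the submitters' processing notes, BWA, SAMtools and build mm9 were used (the sources used here give no versions). Per the file headers, the deposited tables give coverage and edited reads as counts and the level as a fraction, which equals edited reads over coverage to 3 decimals. Levels were recomputed from the counts as percentages.

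Each site's edited and unedited counts entered edgeR 4.0.16 under R 4.3.3 (modelMatrixMeth, glmQLFit, glmQLFTest, two-sided), with 1 coefficient per group over all 20 libraries. Sites needed 50 reads in each library compared and a mean of 1% there. P-values were adjusted by Benjamini-Hochberg over all such sites and called under 0.05. The model was tested on simulated data. Alternatives were limma 3.58.1 on log2 odds (0.5 reads added), coverage minimums of 20 and 100, no minimum level, the compared groups alone, a replicate block and each library left out. Standard errors of differences come from the library SDs. With 2 libraries against 2, an exact test cannot go below p = 0.333.

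The members and lists were chosen with earlier results of these data known. Sites named were all of Rhoa; for Iqgap1, the 10 highest over the groups, the 3 highest in untreated wild-type and in untreated ADAR1-null cells, and those nearest the coverage threshold. Of the sites highest in untreated ADAR1-null cells, base 18 of the second block averaged 0.428% there. The sites at bases 8, 9, 14 and 15 of the second block, and base 16 of the first, were named after their values were seen. No pair of libraries agreed within the sampling noise of independent reads (chi-square per degree of freedom 2.01 to 12.0). If overlapping mates were both counted, that noise is understated, and the lowest of these values may not exceed it. No mm9 genome was used, so no sequence is printed.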

Additional observations from a re-analysis of the deposited data

Results flagged for a closer look

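Each of the following results concerns an interferon response, treated minus untreated, that differed from that of wild-type cells by edgeR's interaction test (Benjamini-Hochberg adjusted p under 0.05, all groups of 2 libraries). All rest on the same treated wild-type libraries, in which the genes were chosen as high. The values are differences of responses in percentage points. Only sites that fall under the naming rule given above are listed. The same tests called 11 Iqgap1 sites in ADAR1-null, 12 in p150-knockout and 13 in STAT2-null cells. No explanation was tested.

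At Rhoa 108239461 the difference was -65.9 points in ADAR1-null and -65.1 points in STAT2-null cells. In ADAR1-null cells the Iqgap1 differences were -11.4 at 87856938, -7.29 at 87857159, -3.59 at 87857169, -21.0 at 87857170, -5.65 at 87857171, -4.61 at 87857252, -21.0 at 87857276 and -6.96 points at 87857283. In p150-knockout cells they were -11.6 at 87856938, -7.17 at 87857159, -3.44 at 87857169, -21.0 at 87857170, -5.52 at 87857171, -3.34 at 87857172, -4.59 at 87857252, -21.1 at 87857276 and -7.07 points at 87857283. In STAT2-null cells they were -11.4 at 87856938, -7.28 at 87857159, -4.06 at 87857169, -21.2 at 87857170, -5.58 at 87857171, -3.35 at 87857172, -4.49 at 87857252, -20.9 at 87857276 and -7.23 points at 87857283. The 3 lines held each of these Iqgap1 sites under 1% with and without interferon.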

How the results depend on the processing

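Counts of called sites of the 2 genes kept within 1.5 times under 162 of 185 results and alternatives, and no direction reversed. With no minimum level the calls were 0 in p150-knockout and 0 in ADAR2-null against untreated wild-type cells and 7 for the ADAR1-null response. In limma they were 0 for ADAR2-null against untreated and 1 for ADAR2-null against treated wild-type cells. With only the groups compared they were 0 and 0 for those 2 comparisons and 6 for the ADAR1-null response. At 100 reads 1 site was called in STAT2-null against untreated wild-type cells. Leaving out 1 library gave 9 to 10 interferon calls in ADAR2-null and 17 to 19 in wild-type cells. Against untreated wild type it gave 0 to 1 in p150-knockout and 0 to 0 in ADAR2-null cells. Against treated wild type it gave 17 to 21 in ADAR1-null, 17 to 18 in p150-knockout, 1 to 3 in ADAR2-null and 16 to 17 in STAT2-null cells. For the differences of responses it gave 6 to 12 in ADAR1-null, 6 to 12 in p150-knockout, 0 to 1 in ADAR2-null and 6 to 14 in STAT2-null cells. Without treated wild-type replicate 1 these were 7, 6, 1 and 6, with fewer sites tested; without treated wild-type replicate 2 the STAT2-null response had 9. Without untreated wild-type replicate 2, or untreated ADAR1-null replicate 2, the ADAR1-null response had 6. The lowest ADAR2-null counts, 9 for interferon and 1 against treated wild type, came without treated ADAR2-null replicate 2, and the p150-knockout 0 without untreated p150-knockout replicate 1. No site could be tested for interferon in p150-knockout cells without either replicate 2.

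Pooling the reads of all sites of a gene, instead of averaging site levels, gave, for Rhoa, 0.727% in treated STAT2-null, 19.1% in treated ADAR2-null and 17.4% in treated wild-type cells. For Iqgap1 it gave 0.420% in treated ADAR1-null, 0.391% in treated p150-knockout, 0.335% in treated STAT2-null, 1.24% in treated and 0.381% in untreated ADAR2-null, and 0.400% in untreated wild-type cells; weighting by coverage is what differs.

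Same-numbered libraries of a line did not deviate together (correlations over 604 sites of 0.145 in ADAR1-null, -0.0756 in p150-knockout, 0.0825 in STAT2-null, -0.146 in ADAR2-null and 0.0494 in wild-type cells), so the numbers were not taken as pairs. With a replicate block, interferon gave 13 calls in ADAR2-null and 19 in wild-type cells, and ADAR2-null against treated wild type 3, and none of the 17 counts moved beyond 1.5 times. With the ADAR2-null numbers crossed, chosen after seeing the data, the interferon count in ADAR2-null cells was also 13. Depth limits levels under 1% to within 1.56 points, and 2 libraries per group limit every test.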
